A study of Homo sapiens with 12 samples.

Results

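The TGF-beta signalling genes described here are 10: the ligands TGFB1, TGFB2, TGFB3 and INHBA, the receptors TGFBR1, TGFBR2 and TGFBR3, and the SMADs SMAD3, SMAD4 and SMAD7. They were chosen by name, as the sum of their transcript rows, and make 10 of the 39099 genes that the deposited transcripts add up to. INHBA never reached 1 TPM, so 9 of the 10 could be tested among 14767 genes. RNA was measured in 12 libraries of ASPC1 and PANC1, established human lines of pancreatic cancer. Each line was given a Mock control, TAp63 overexpression or deltaNp63 overexpression, and each of these 6 groups holds 2 libraries labelled as biological replicates. TP63 encodes a transcription factor of the p53 family, and its TAp63 form carries an amino-terminal activation domain that deltaNp63, made from a start site inside the gene, lacks. The labels do not say which vector was used, how long the cells carried it, or whether clones or pools were grown.

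TGF-beta is secreted in a latent complex and, once released, binds the type II receptor TGFBR2, which recruits and phosphorylates the type I receptor TGFBR1. TGFBR1 then phosphorylates SMAD2 and SMAD3, which enter the nucleus with the shared partner SMAD4, while SMAD7 is an induced inhibitor that blocks the receptor. In the pancreas the pathway is known for restraining epithelial growth early in cancer and for promoting invasion and epithelial to mesenchymal transition later, and SMAD4 and TGFBR2 are among the genes that pancreatic tumours mutate.

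TP63 was checked first. In ASPC1 it stood at 1.1 and 0.817 TPM (a relative transcript abundance corrected for transcript length) in mock, at 102 and 170 with TAp63, and at 245 and 350 with deltaNp63. In PANC1 it stood at 0.119 and 0.0245 TPM in mock, at 324 and 342 with TAp63, and at 815 and 1187 with deltaNp63. The 13 TP63 transcript rows were then split by start site, since TAp63 forms begin at the upstream start and deltaNp63 forms at the downstream one. The 6 upstream rows summed to 65.7 and 101 TPM in ASPC1 TAp63 and 198 and 215 in PANC1 TAp63, and to at most 0.898 TPM in any mock or deltaNp63 library. The 7 downstream rows summed to 245 and 349 TPM in ASPC1 deltaNp63 and 815 and 1187 in PANC1 deltaNp63, but also to 36.5 and 68.3 in ASPC1 TAp63 and 126 and 127 in PANC1 TAp63, nearly all of it TP63-211. Upstream forms were thus high only in the libraries labelled TAp63, and the downstream sum was highest in those labelled deltaNp63. In the TAp63 libraries TP63-211 was the only high downstream row, and each other downstream row had at most 0.362 TPM there. Whether those TP63-211 values stand for RNA from the downstream start was not tested. These rows do not separate a construct from the cells' own TP63. The number of reads behind a TPM value is unknown, and only the spread between replicates gives its precision. Replicates of a group correlated across the tested genes with r between 0.987 and 0.994, and a library held between 12212 and 13161 genes at 1 TPM or more. Epithelial markers (EPCAM, KRT8, KRT18, KRT19 and CDH1) summed to 7131 to 10554 TPM in ASPC1 libraries and to 3483 to 3851 in PANC1 libraries. The sum of the mesenchymal markers VIM, ZEB1 and CDH2 was 2014 to 2378 TPM in ASPC1 and 4335 to 4985 in PANC1. The leukocyte gene PTPRC and the endothelial gene CDH5 had group means of at most 0.00948 and 0.0579 TPM. LYZ, on the leukocyte list, had group means of 106 to 120 TPM in ASPC1, and LUM, on the fibroblast list, of 204 to 250 TPM there, and their part in any result was not tested.

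The stretches of DNA just upstream of the start sites are shown for the 3 TGFB ligands and for the receptor and SMAD that the comparisons turn on, since these promoters are of different kinds. Each line holds the 250 bases before the RefSeq start (GRCh38.p14), 5′ to 3′ on the strand of the gene, and each window ends where TGFB1-201, TGFB2-202, TGFB3-201, TGFBR2-201 or SMAD3-201 begins. For SMAD3 this is the full-length form, which was not the most abundant SMAD3 transcript in ASPC1. Capitals mark the GC box GGGCGG on either strand, which Sp1 proteins bind, and the TATA box TATAAA on either strand.
TGFB1, chr19:41353923-41354172, minus strand: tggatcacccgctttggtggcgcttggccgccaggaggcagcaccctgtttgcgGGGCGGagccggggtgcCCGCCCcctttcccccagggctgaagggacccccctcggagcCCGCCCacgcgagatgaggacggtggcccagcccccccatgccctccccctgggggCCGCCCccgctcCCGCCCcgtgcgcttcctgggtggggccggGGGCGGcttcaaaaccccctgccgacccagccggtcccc
TGFB2, chr1:218345086-218345335, plus strand: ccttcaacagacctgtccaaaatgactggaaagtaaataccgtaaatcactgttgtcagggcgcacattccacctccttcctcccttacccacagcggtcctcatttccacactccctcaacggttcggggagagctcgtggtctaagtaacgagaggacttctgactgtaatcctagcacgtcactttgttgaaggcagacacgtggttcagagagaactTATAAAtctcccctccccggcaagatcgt
TGFB3, chr14:75981996-75982245, minus strand: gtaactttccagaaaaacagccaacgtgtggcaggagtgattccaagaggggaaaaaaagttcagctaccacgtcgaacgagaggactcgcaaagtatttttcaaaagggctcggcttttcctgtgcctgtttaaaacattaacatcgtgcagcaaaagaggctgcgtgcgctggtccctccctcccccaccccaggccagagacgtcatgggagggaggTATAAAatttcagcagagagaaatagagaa
TGFBR2, chr3:30606351-30606600, plus strand: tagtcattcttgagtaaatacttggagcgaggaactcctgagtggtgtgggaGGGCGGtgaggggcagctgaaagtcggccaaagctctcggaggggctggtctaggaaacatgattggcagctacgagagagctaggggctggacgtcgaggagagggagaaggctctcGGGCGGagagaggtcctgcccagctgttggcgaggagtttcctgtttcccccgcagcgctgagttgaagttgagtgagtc
SMAD3, chr15:67065352-67065601, plus strand: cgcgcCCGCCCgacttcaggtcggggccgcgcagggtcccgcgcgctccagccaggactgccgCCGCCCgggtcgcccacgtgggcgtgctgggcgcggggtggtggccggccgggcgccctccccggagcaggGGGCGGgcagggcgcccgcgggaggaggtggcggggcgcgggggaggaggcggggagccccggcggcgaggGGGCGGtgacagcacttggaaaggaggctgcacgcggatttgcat
The TGFB1 window was 76.8% G or C with 6 GC boxes, the SMAD3 window 80.8% with 4, and the TGFBR2 window 58.4% with 2, and none of these held TATAAA. TGFB2 and TGFB3 had 50.4% and 49.2% G or C, no GC box and 1 TATA box each, which began 29 and 30 bases before the start. Among 35116 promoter windows of the same length, 42.6% held GGGCGG and 10.7% held TATAAA. For each member 1 window was searched, that nearest the start of its most abundant transcript over all libraries. TGFBR1 had 8 windows, SMAD3 5, SMAD7 3, and TGFB3 and TGFBR2 2 each, and their other windows are not described here. For SMAD4 and INHBA that transcript began 47038 and 2481 bases downstream of the start used. The p53 family half-site, searched on both strands, matched none of these 10 windows, against 5.6% of all windows, which include alternative windows of a gene. The SMAD palindrome GTCTAGAC also matched none of the 10, against 0.2% of all windows, and the shorter SMAD box CAGAC occurred in the windows of TGFB2, TGFBR1 and SMAD7, against 38.0% of all. None of these letter strings contains another, and a match or its lack describes only these letters in this window.

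**Figure D1:**
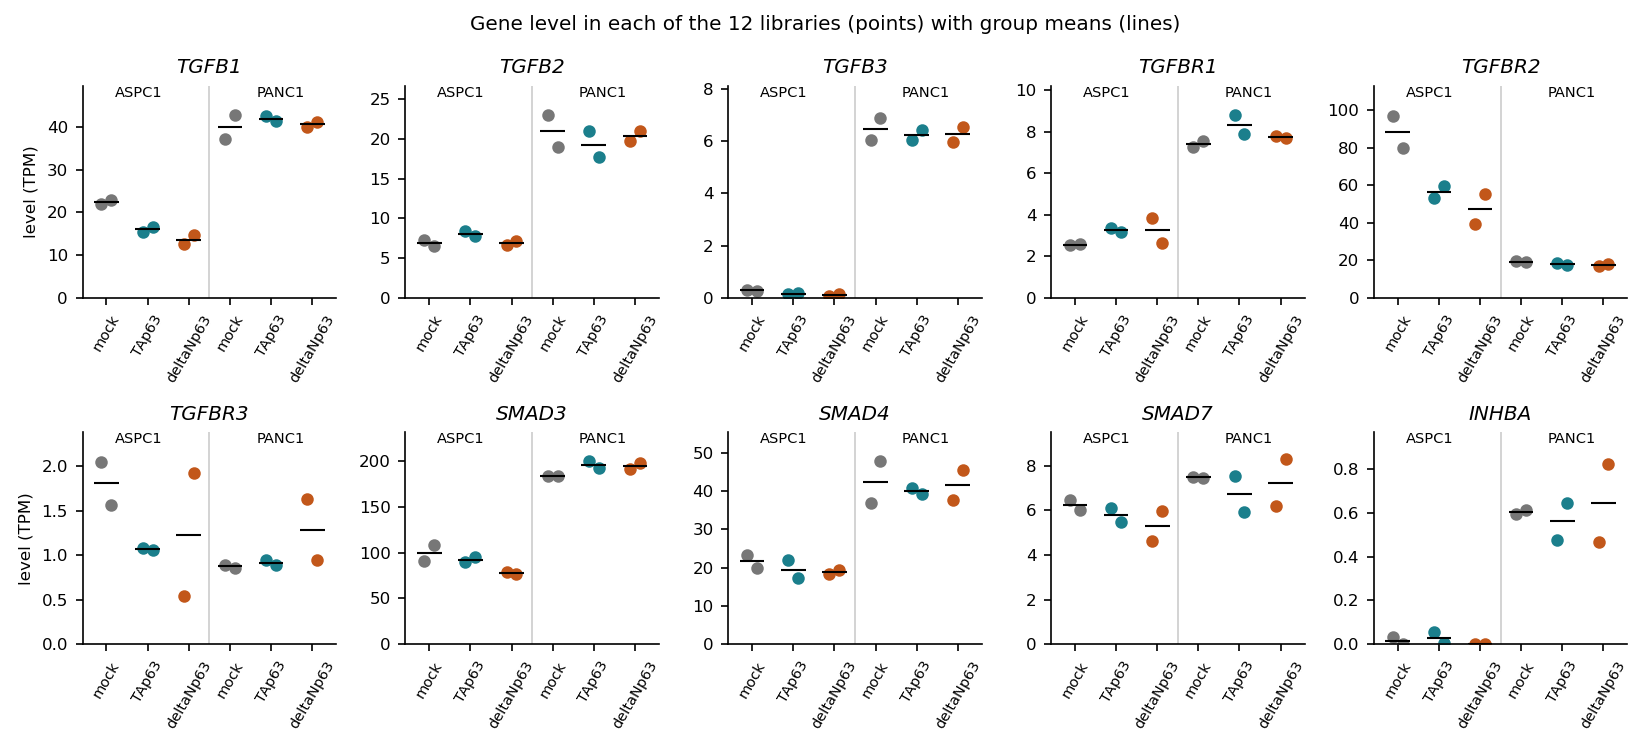
TPM of each of the 10 genes (vertical axis, linear from 0, own scale per panel) in the 12 libraries, with points for libraries and a line for the mean of the 2 libraries of a group. TGFB1 and TGFBR2 step down from mock in ASPC1, and the cell lines stand apart for all the panels except TGFBR3 and SMAD7.

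The ligands differed first by cell line. TGFB1, the most abundant of them, was at 22.1 and 22.9 TPM in ASPC1 mock and at 37.3 and 42.8 in PANC1 mock. TGFB2 was at 7.3 and 6.49 TPM against 23 and 19, and TGFB3 at 0.317 and 0.25 TPM against 6.04 and 6.91. All 3 were higher in PANC1 without overlap, by a ratio of mean TPM of 1.78 for TGFB1, 3.04 for TGFB2 and 22.9 for TGFB3. On the log2(TPM + 1) scale that was used for all tests, and which understates changes of low genes such as TGFB3, the differences were 0.80 (SE 0.11, limma adjusted p = 5.98e-05), 1.47 (SE 0.13, adjusted p = 2.7e-06) and 2.54 (SE 0.12, adjusted p = 3.15e-08). INHBA, whose product forms activin A, was at 0.0315 TPM and listed at 0 in the ASPC1 mock libraries and at 0.596 and 0.615 TPM in PANC1 mock.

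Among the receptors, TGFBR2 went the other way. It stood at 96.8 and 80 TPM in ASPC1 mock and at 19.6 and 18.9 in PANC1 mock, 0.217 times the ASPC1 mean (log2 difference −2.14, SE 0.15, adjusted p = 5.87e-07). TGFBR1 was at 2.54 and 2.59 TPM in ASPC1 mock and at 7.27 and 7.58 in PANC1 mock, 2.9 times as much (log2 difference 1.24, SE 0.14, adjusted p = 1.98e-05). The type II receptor transcript was thus far above the type I transcript in ASPC1, with a ratio of 38.1 and 30.9 in its mock libraries, and closer to it in PANC1, with 2.69 and 2.49. TGFBR3, the co-receptor betaglycan that presents ligand to TGFBR2, was low in both mock groups, at 2.05 and 1.57 TPM and at 0.892 and 0.859, and its difference missed the threshold (−0.58, 95% interval −1.17 to 0.01, adjusted p = 0.0714). Under median centring of the libraries it passed (−0.75, adjusted p = 0.0213).

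SMAD3 and SMAD4 were both higher in PANC1. SMAD3, the signal-carrying SMAD, was at 91.3 and 108 TPM in ASPC1 mock and at 184 and 183 in PANC1 mock (ratio 1.84, log2 difference 0.88, SE 0.09, adjusted p = 7.85e-06). SMAD4 was at 23.3 and 20 TPM against 36.8 and 47.8 (ratio 1.95, log2 difference 0.93, SE 0.16, adjusted p = 0.000379). SMAD7 was at 6.46 and 5.99 TPM against 7.48 and 7.46, close in both lines (log2 difference 0.23, 95% interval −0.13 to 0.59, adjusted p = 0.224). In all, 7 of the 9 tested genes passed between the mock groups, 6 higher and 1 lower in PANC1, where 72.5% of all tested genes passed, 44.6% higher and 27.9% lower. The members' share of 77.8% is thus near the background of these unlike lines, and their median difference was 0.88 against 0.24 over all tested genes.

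**Figure D2:**
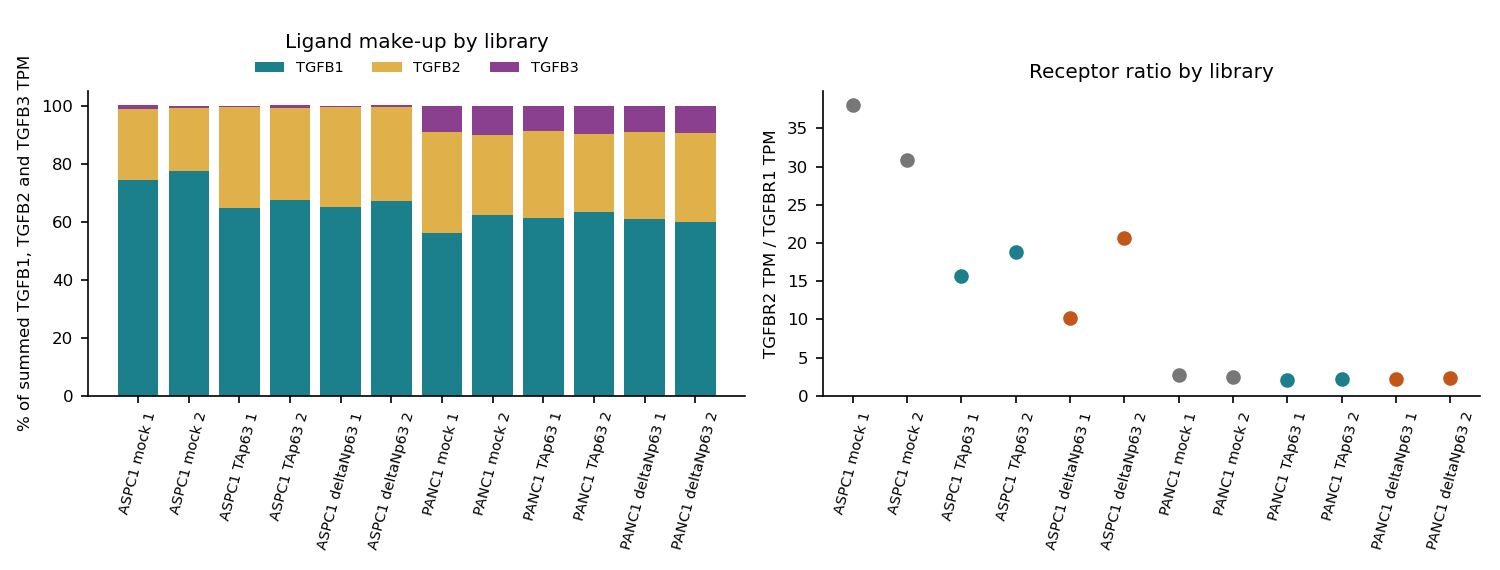
Left, the share of TGFB1, TGFB2 and TGFB3 in their summed TPM (vertical axis, percent) for each of the 12 libraries; right, the ratio of TGFBR2 to TGFBR1 TPM in the same libraries, coloured by construct. TGFB3 is at most 1.07% in ASPC1 and 8.67% to 10.1% in PANC1, and the receptor ratio lies between 10.2 and 38.1 in ASPC1 and between 2.11 and 2.69 in PANC1.

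The main change against mock was in ASPC1 cells with deltaNp63, in which TGFB1, TGFBR2 and SMAD3 fell. These 3 of the 9 tested genes passed and none was higher, where 7.14% of all tested genes passed, 6.51% lower and 0.637% higher. The members' median change was −0.22 on the log2 scale and that of all tested genes −0.12. Of the 10 genes, 6 were lower and 1 was higher without overlap between the groups' values. The share of all tested genes without overlap was not counted, so these numbers describe the members alone. In PANC1 the same construct gave no call among the members by limma, with 0 at an unadjusted p under 0.05 and 0.0406% of all genes called (0.0271% higher and 0.0135% lower). Bulk libraries do not tell fewer expressing cells from less RNA per cell. The p-values measure the spread between samples labelled as biological replicates, which may be partly technical.

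TGFB1 (ENSG00000105329, chr19:41301587-41353922, minus strand, hg38) was at 22.1 and 22.9 TPM in ASPC1 mock, at 15.5 and 16.6 with TAp63, and at 12.5 and 14.8 with deltaNp63. Both constructs lay below mock without overlap, and deltaNp63 also lay below TAp63. Against mock it fell by 39.5% in mean TPM with deltaNp63 (log2 change −0.69, SE 0.11, adjusted p = 0.0103). With TAp63 the change of −0.46 (SE 0.11) missed the threshold at an adjusted p = 0.101. The direct contrast of TAp63 with deltaNp63 gave 0.23 with a 95% interval of −0.01 to 0.46 (adjusted p = 0.633). In PANC1 TGFB1 was at 37.3 and 42.8 TPM in mock, at 42.6 and 41.5 with TAp63 and at 40 and 41.3 with deltaNp63, so that the groups lay close together. The deltaNp63 change there was 0.03 with a 95% interval of −0.21 to 0.26. The annotated span of TGFB1 overlaps HNRNPUL1, CCDC97 and TMEM91 on the opposite strand; the library kit was stranded, but whether the counting used the strand is not given in the sources used here, so reads of these genes may be mixed.

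TGFBR2 (ENSG00000163513, chr3:30606601-30694142, plus strand) had the largest change of the 9 tested members in ASPC1 on the log2(TPM + 1) scale, in which low genes count less; in mean TPM the low TGFB3 differed by more. It was at 96.8 and 80 TPM in mock, at 53.2 and 59.4 with TAp63, and at 39.6 and 55.2 with deltaNp63. All 4 libraries with a construct lay below both mock libraries, while the construct groups overlapped each other. With deltaNp63 TGFBR2 fell by 46.4% (log2 change −0.90, SE 0.15, adjusted p = 0.0169), and with TAp63 the change was −0.64 (SE 0.15, adjusted p = 0.113). The PANC1 libraries stayed within 16.8 to 19.6 TPM, with both constructs just below mock, and the deltaNp63 change there was −0.14 with a 95% interval of −0.48 to 0.20. Because TGFBR1 did not follow, the ratio of TGFBR2 to TGFBR1 in ASPC1 went from 38.1 and 30.9 in mock to 15.7 and 18.8 with TAp63 and 10.2 and 20.7 with deltaNp63.

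SMAD3 (ENSG00000166949, chr15:67063763-67195173, plus strand) was at 91.3 and 108 TPM in ASPC1 mock, at 89.6 and 95.1 with TAp63, and at 78.8 and 76.4 with deltaNp63. The deltaNp63 libraries lay below all the others of the line, and TAp63 overlapped mock. The change with deltaNp63 was a fall of 22.2% (log2 change −0.35, SE 0.09, adjusted p = 0.0448), which is close to the threshold and passed in only 5 of 23 other settings. With median centring it was −0.15 (adjusted p = 0.331). In PANC1 SMAD3 was at 184 and 183 TPM in mock, 200 and 192 with TAp63 and 191 and 198 with deltaNp63, so that the construct libraries lay above mock, with a change of 0.08 for deltaNp63 that did not pass (95% interval −0.11 to 0.28).

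These 3 calls rest on the ASPC1 mock and deltaNp63 libraries and on the spread shared with the other groups. TGFB1 and TGFBR2 each passed in 17 of 23 other settings. No member passed without ASPC1 mock replicate 1 or without ASPC1 deltaNp63 replicate 1, where the adjusted p was 0.0664 and 0.0545 for TGFB1 and 0.123 and 0.0647 for TGFBR2. Without ASPC1 mock replicate 2 TGFB1 and SMAD3 no longer passed, at −0.66 and −0.23, and TGFBR2 was at −1.03. Without ASPC1 deltaNp63 replicate 2 the changes were −0.80 for TGFB1, −1.13 for TGFBR2, 0.45 for TGFBR1 and −0.86 for TGFBR3. The excess of falls over rises in all genes also depends on the scaling: of the called genes 94 were higher and 961 lower here, 249 and 170 after median centring, and 51 and 148 after quantile normalization. TGFB1 kept a change of −0.48 (adjusted p = 0.0318) and TGFBR2 of −0.69 (adjusted p = 0.0305) after median centring, which moved the median of all genes by 0.21.

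**Figure D3:**
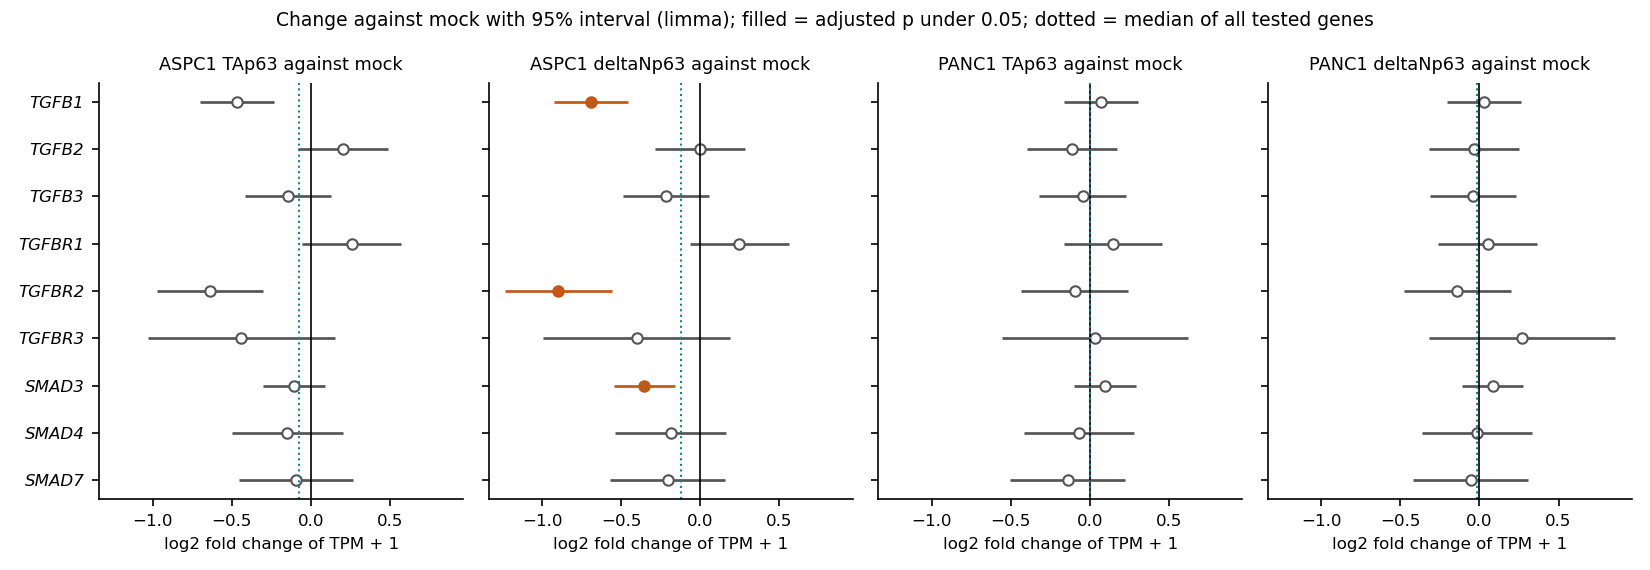
Log2 fold change of TPM + 1 against mock (horizontal axis) for the 9 tested genes in the 4 comparisons of a construct with mock, with the 95% interval from limma; filled points passed an adjusted p of 0.05 and the dotted line is the median of all tested genes. The 3 filled points, TGFB1, TGFBR2 and SMAD3, are in ASPC1 with deltaNp63, and the PANC1 points lie near 0.

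The other ligands and receptors gave no call against mock in ASPC1. TGFB2 (ENSG00000092969, chr1:218345336-218444619, plus strand) was at 7.3 and 6.49 TPM in mock, at 8.37 and 7.78 with TAp63, and at 6.62 and 7.12 with deltaNp63. Only TAp63 lay above mock, by 0.20 (95% interval −0.08 to 0.49, adjusted p = 0.493). TGFB3 (ENSG00000119699, chr14:75958097-75983011, minus strand) was at 0.317 and 0.25 TPM in mock, at 0.136 and 0.189 with TAp63 and at 0.0793 and 0.128 with deltaNp63. Its groups were ordered without overlap at very low levels, and the deltaNp63 change of −0.22 did not pass (adjusted p = 0.266). As TGFB1 was lower and TGFB2 was not, TGFB1 made up 74.4% and 77.3% of the summed TGFB TPM in ASPC1 mock and 64.6% to 67.6% in the 4 libraries with a construct. The sum itself was 29.7 TPM in both mock libraries, 24.1 and 24.5 with TAp63 and 19.2 and 22 with deltaNp63. In PANC1 the 6 libraries held sums of 65.6 to 69.6 TPM, of which TGFB1 took 56.2% to 63.3%.

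TGFBR1 (ENSG00000106799, chr9:99104038-99154192, plus strand) was at 2.54 and 2.59 TPM in ASPC1 mock, at 3.38 and 3.15 with TAp63 and at 3.87 and 2.66 with deltaNp63. Every library with a construct lay above mock, but the changes of 0.26 (95% interval −0.05 to 0.57) and 0.25 (95% interval −0.07 to 0.56) did not pass. TGFBR3 (ENSG00000069702, chr1:91680343-91906335, minus strand) was at 2.05 and 1.57 TPM in mock, at 1.08 and 1.06 with TAp63, and at 0.54 and 1.92 with deltaNp63. The deltaNp63 replicates of TGFBR3 lie on either side of the TAp63 pair, so that the group's mean describes neither library. In PANC1 deltaNp63 they also differed, with 1.63 and 0.944 TPM, where mock had 0.892 and 0.859.

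Neither SMAD4 nor SMAD7 passed against mock in either line. SMAD4 (ENSG00000141646, chr18:51028528-51085045, plus strand) was at 23.3 and 20 TPM in ASPC1 mock, 21.9 and 17.2 with TAp63 and 18.3 and 19.5 with deltaNp63, a change of −0.19 for deltaNp63 (95% interval −0.54 to 0.16). SMAD7 (ENSG00000101665, chr18:48919853-48950965, minus strand), a direct target of the pathway it inhibits, was at 6.46 and 5.99 TPM in mock, 6.11 and 5.46 with TAp63 and 4.64 and 5.95 with deltaNp63. Its deltaNp63 libraries lay just below mock, with a change of −0.21 (95% interval −0.57 to 0.16). INHBA (ENSG00000122641, chr7:41667168-41705834, minus strand) was listed at 0 in both ASPC1 deltaNp63 libraries and had at most 0.0551 TPM in the other ASPC1 libraries. In PANC1 it ranged from 0.468 to 0.822 TPM over the 6 libraries, and no group of that line stood apart. TGFB2, TGFB3 and INHBA also overlap a gene on the opposite strand (TGFB2-AS1, IFT43 and INHBA-AS1), and their values carry the same doubt as that of TGFB1.

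With TAp63 in ASPC1 none of the 9 tested genes passed by limma, where 0.637% of all tested genes did (0.0271% higher and 0.609% lower). TGFB1 and TGFBR2, 2 of the 9, had an unadjusted p under 0.05, as did 2233 of all 14767 tested genes. The members' median change was −0.14 against −0.08 over all genes. Of the 10 genes 4 lay lower and 2 higher without overlap, again with no count over all genes to set beside them. Either ASPC1 deltaNp63 library enters this comparison only through the shared spread. Leaving it out kept the changes at −0.46 for TGFB1 and −0.64 for TGFBR2, and whether they passed turned on that spread. The constructs share their mock libraries, so their changes against mock are not independent of each other. Between TAp63 and deltaNp63 in ASPC1 none passed (0.0203% of all genes). There 1 member, SMAD3, had an unadjusted p under 0.05 (0.25 higher with TAp63, 95% interval 0.05 to 0.44), as did 1170 of all 14767 tested genes.

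In PANC1 none of the 9 passed with TAp63 against mock (0.00677% of all genes) or between TAp63 and deltaNp63 (0.0271%, with 0.0135% higher and 0.0135% lower), and 0 had an unadjusted p under 0.05 in either. The largest member change with TAp63 was that of TGFBR1, which was at 7.27 and 7.58 TPM in mock and at 8.8 and 7.88 with TAp63, a change of 0.15 with a 95% interval of −0.17 to 0.46. TGFB2 there was at 23 and 19 TPM in mock, 21 and 17.7 with TAp63 and 19.7 and 21 with deltaNp63, and TGFB3 stayed within 5.99 to 6.91 TPM. SMAD4 in PANC1 ranged from 36.8 to 47.8 TPM and SMAD7 from 5.94 to 8.28, with overlap among the groups. TP63 was thus high in the PANC1 libraries of both constructs with no member past the threshold.

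Whether the constructs acted differently in the lines was tested directly. None of the 9 passed for TAp63 (0.0745% of all genes) or for deltaNp63 (0.582%, with 0.562% higher and 0.0203% lower), with 2 and 3 members at an unadjusted p under 0.05. That level was reached by 1540 and 2431 of all 14767 tested genes. For deltaNp63 the PANC1 change exceeded the ASPC1 change by 0.72 for TGFB1 (95% interval 0.39 to 1.05, adjusted p = 0.0918), by 0.76 for TGFBR2 (0.28 to 1.24, adjusted p = 0.209) and by 0.44 for SMAD3 (0.16 to 0.71, adjusted p = 0.21). A call in ASPC1 and none in PANC1 therefore does not by itself show a difference between the lines. With each library left out in turn, the difference ranged from 0.60 to 0.83 for TGFB1 and from 0.52 to 0.99 for TGFBR2. It ranged from 0.32 to 0.56 for SMAD3 and from 0.21 to 1.13 for TGFBR3.

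Ordering the 6 groups by mean TPM gave the same split for most members. TGFB1, TGFB2, TGFB3, TGFBR1, SMAD3, SMAD4 and INHBA had the 3 PANC1 groups on top, and the lowest of these did not overlap the highest ASPC1 group. TGFBR2 had the 3 ASPC1 groups on top, again without overlap. SMAD7 was ordered by line as well, but all its neighbouring groups overlapped. TGFBR3 mixed the lines, from 1.81 TPM in ASPC1 mock to 0.875 TPM in PANC1 mock, and only ASPC1 TAp63 and PANC1 TAp63 were neighbours without overlap.

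Transcript rows showed which products the gene sums hold, with the reservation that the program that shared reads among isoforms is not given in the sources used here. TGFB1 was nearly all TGFB1-201, which encodes the precursor of 390 residues and held 94.7% to 98.0% of the gene in each group. TGFBR2 was split between TGFBR2-201 (567 residues), with 48.4% to 61.0%, and TGFBR2-202 (592 residues), with 39.0% to 51.6%, the isoforms that differ by an insert in the extracellular part. TGFB2 was mostly TGFB2-202 (414 residues), with 51.3% to 57.2%, and TGFB2-203, a transcript with no defined coding sequence, with 33.0% to 42.3%; TGFB2-204 reached 13.5% in ASPC1 TAp63. In TGFB3, TGFB3-201 held at least 93.9% in the PANC1 groups, and TGFB3-207 reached 19.2% in ASPC1 mock, where the gene is near 0.

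SMAD3 differed in make-up between the lines. SMAD3-201, the full-length form of 425 residues whose start follows the printed promoter, held 25.4% to 28.9% of SMAD3 in the ASPC1 groups and 46.2% to 52.8% in the PANC1 groups. SMAD3-202 (381 residues), which starts downstream within the gene, held 38.5% to 41.7% in ASPC1 and 25.7% to 31.4% in PANC1, and SMAD3-213, an incomplete coding model, held 7.0% to 15.8% over all groups. Tested as a row of its own, SMAD3-201 was higher in PANC1 mock by 1.72 (SE 0.10, adjusted p = 1.66e-06), more than the gene's 0.88, and the retained-intron form SMAD3-207 was lower by 1.05 (log2 difference −1.05, adjusted p = 0.00442).

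SMAD4 was mostly made of transcripts that do not encode the full protein. The retained-intron transcript SMAD4-204 held 22.7% to 27.5% of the gene, SMAD4-213, a target of nonsense-mediated decay, 21.0% to 24.7%, and SMAD4-205, which encodes 456 residues, 14.3% to 23.5%. SMAD4-214, with no defined coding sequence, held 7.3% to 22.1% and SMAD4-209 (552 residues) at most 11%. All transcripts for the protein of 552 residues together held 6.1% to 9.9% of SMAD4 in the ASPC1 groups and 7.9% to 16.2% in the PANC1 groups. When only complete coding transcripts were summed, SMAD4 was at 7.28 and 6.16 TPM in ASPC1 mock and at 4.22 and 3.64 with deltaNp63. This alternative, chosen after the data were seen, gave 5 calls by limma, all lower: TGFB1, TGFBR2, SMAD3, SMAD4 (−0.65, adjusted p = 0.0182) and TGFBR3 (−0.76, adjusted p = 0.0122). Calls over all genes also rose, from 1055 to 1600, with 106 higher and 1494 lower.

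The remaining members were also mixtures. TGFBR1 was divided among TGFBR1-209 (507 residues), with 31.9% to 63.6%, TGFBR1-202 (503 residues), with 27.0% to 42.8%, and the decay target TGFBR1-207, with up to 25.9%. SMAD7-201 (426 residues) held 35.1% to 51.5% of SMAD7 and the retained-intron form SMAD7-202 27.9% to 44.4%, with SMAD7-208 and SMAD7-204 reaching 15.5% and 12.7%. TGFBR3-201 and TGFBR3-207, both of 851 residues, reached 75.6% and 37.8%, and TGFBR3-205, TGFBR3-206 and TGFBR3-204 reached 34.3%, 33.1% and 15.2% in single groups of this low gene. INHBA in the PANC1 groups came from INHBA-203, with 47.8% to 59.1%, and INHBA-201, with 40.9% to 51.4%, both of 426 residues. None of the 32 member rows tested passed in any contrast that involves a construct; 7 of them had an unadjusted p under 0.05 for deltaNp63 against mock in ASPC1, 5 for TAp63 there, and 5 and 2 in PANC1. Between the mock groups 13 rows passed. How many of all 47437 tested transcript rows reached these levels is not given here, so the counts describe the members' rows alone.

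**Figure D4:**
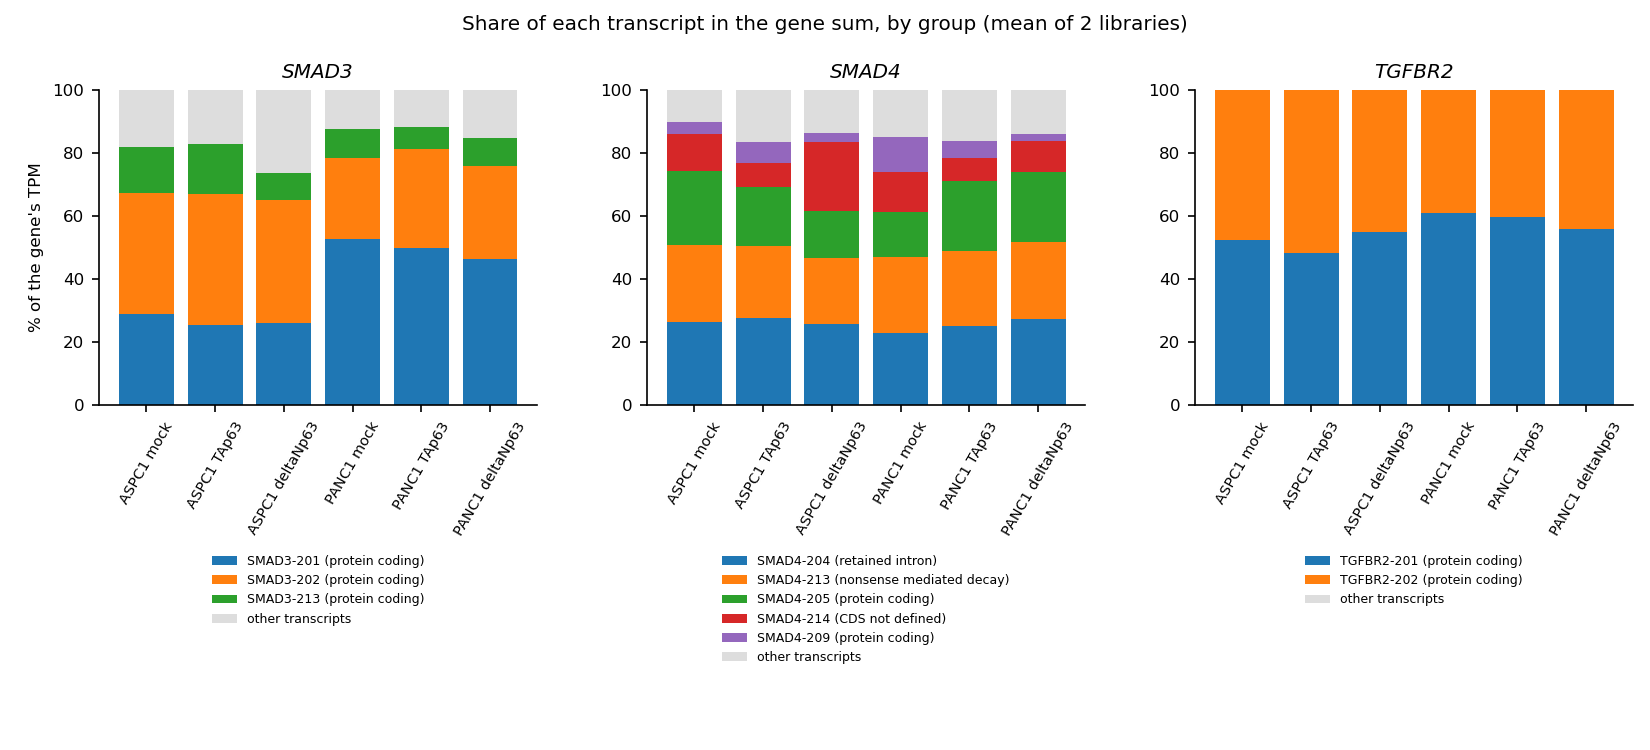
Share of the gene's TPM (vertical axis, percent) held by each transcript of SMAD3, SMAD4 and TGFBR2 that reaches 10% in any group, for the 6 groups as means of 2 libraries, with all others in grey. SMAD3-201 is 25.4% to 28.9% in ASPC1 and 46.2% to 52.8% in PANC1, and the TGFBR2 isoforms each hold between 39.0% and 61.0%.

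The other genes of the pathway were taken as 7 lists with 89 different genes, of which 71 could be tested. In ASPC1 with deltaNp63 2 of these rose and 8 fell, with a median change of −0.11, near the −0.12 of all tested genes, and the 10 calls of 71 stand beside the background of 7.14%. None passed by limma in ASPC1 with TAp63, in PANC1 with either construct, or between the constructs in either line. An unadjusted p under 0.05 was found for 12 with TAp63 in ASPC1 and 2 with each construct in PANC1. Between the constructs it was found for 6 in ASPC1 and 3 in PANC1. Of all 14767 tested genes, 2233 reached that level with TAp63 in ASPC1, and 503 and 345 with TAp63 and deltaNp63 in PANC1. Between the constructs 1170 did in ASPC1 and 437 in PANC1. Each of the 10 calls passed in only 4 to 8 of 22 other settings, and none changed sign. None of the 10 passed without ASPC1 mock replicate 1 or 2, without ASPC1 deltaNp63 replicate 1, or without any one PANC1 library.

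Among other ligands of the family 1 of 10 tested fell with deltaNp63 in ASPC1. This was BMP4, a bone morphogenetic protein, which went from 25.7 ± 7.25 TPM to 11.3 ± 4.99 (SD, n = 2; log2 change −1.15, adjusted p = 0.0391; −0.72 without ASPC1 deltaNp63 replicate 1). GDF15, a stress-induced ligand and the most abundant of this list, had 317 ± 12.8 and 235 ± 87.4 TPM and did not pass. Of the genes for latency and activation 2 of 10 fell: LTBP4, which tethers latent TGF-beta to the matrix, from 10.4 ± 1.97 to 6.29 ± 0.10 TPM (−0.64, adjusted p = 0.0383), and FURIN, the protease that cuts the TGF-beta precursor (−0.45, adjusted p = 0.039). LTBP4 was at −0.40 after quantile normalization and −0.32 with complete coding transcripts, and FURIN at −0.24 after median centring and −0.26 after quantile normalization. One of 7 other receptors and co-receptors fell, ENG, the co-receptor endoglin (−0.67, adjusted p = 0.0394; −0.43 after quantile normalization; 6.25 TPM in mock and 3.62 with deltaNp63). One of 5 other SMADs fell, SMAD1 of the BMP branch (−0.75, adjusted p = 0.0423; −0.43 without ASPC1 deltaNp63 replicate 1), while SMAD2, the partner of SMAD3, was at 39.4 and 40.7 TPM in the same groups.

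One of 14 tested inhibitors and co-repressors fell, BAMBI, a decoy receptor that is also on the list of BMP targets (−0.62, adjusted p = 0.0423; −0.39 without ASPC1 deltaNp63 replicate 1 and −0.41 after median centring; 117 TPM in mock and 76.4 with deltaNp63). It was the only call among 6 tested BMP targets. Of 26 genes known as targets of TGF-beta or activin 2 rose and 2 fell. Those that rose were CCN2, a matricellular growth factor (0.55, adjusted p = 0.0398), from 27.6 to 40.7 TPM, and SNAI2, the repressor SLUG of epithelial to mesenchymal transition (0.75, adjusted p = 0.0495; 0.46 without ASPC1 deltaNp63 replicate 1), from 245 to 414 TPM. Those that fell were TGFBI, a secreted matrix protein (−0.31, adjusted p = 0.0487; −0.10 after median centring), from 270 to 217 TPM, and ADAM19, a membrane protease (−0.69, adjusted p = 0.0381; −0.46 after quantile normalization). The median of this list was −0.07. JUNB, an AP-1 subunit, was at 598 TPM in mock and 558 with deltaNp63 and did not pass.

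**Figure D5:**
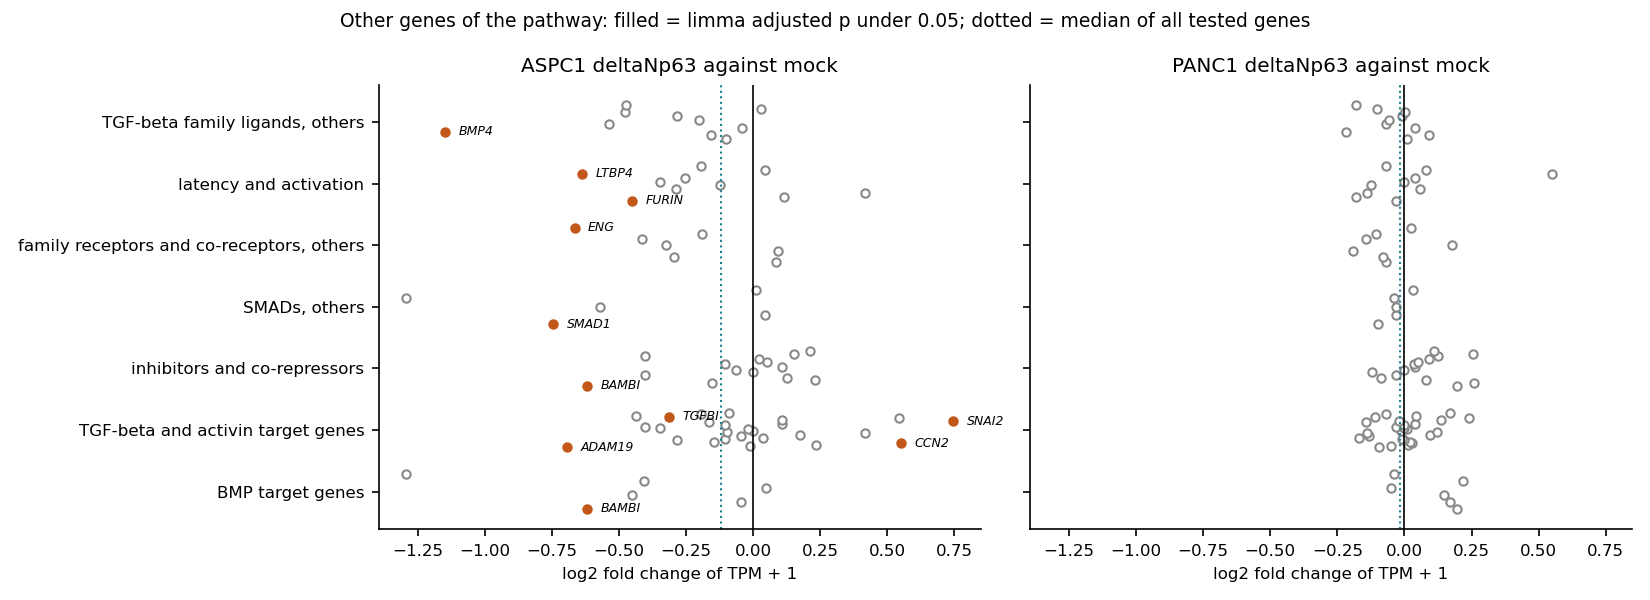
Log2 fold change of TPM + 1 with deltaNp63 against mock (horizontal axis) for the tested genes of each of the 7 lists in ASPC1 (left) and PANC1 (right); filled, named points passed an adjusted p of 0.05, and the dotted line is the median of all tested genes. In ASPC1 8 genes fell and 2 rose, BAMBI being drawn in 2 lists, and no point is filled in PANC1.

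Between the mock groups 28 of the 71 genes were higher in PANC1 and 27 lower, beside the background of 72.5%. The targets of TGF-beta or activin were divided, with 9 of 26 higher and 11 lower. COL1A1, a collagen chain, was at 0.264 TPM in ASPC1 and 85.1 in PANC1, while SNAI2 was at 245 TPM in ASPC1 and 0.719 in PANC1 (log2 difference −7.14, adjusted p = 4.74e-10). CDKN2B, the cell cycle inhibitor p15 that TGF-beta induces, was at 74 TPM in ASPC1 and listed at 0 in all PANC1 groups. LTBP2 was higher in PANC1 (5.79, adjusted p = 6.13e-11) and ITGB6, the integrin chain that activates latent TGF-beta on epithelia, was lower (−3.94, adjusted p = 9.94e-10). BAMBI was at 117 TPM in ASPC1 and 2.27 in PANC1, SMURF1, a ubiquitin ligase that acts on receptors and SMADs, at 454 and 43.8 TPM, and SMAD2 at 39.4 and 75.5 TPM.

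For each of the 3 members that fell, the genes most like it were found by Pearson's r over the 12 libraries, after each gene was centred on the mean of its cell line, among 10220 other genes with a mean of at least 5 TPM. They are a description, since the libraries share constructs. TGFB1 was closest to TAP1 (r = 0.985), IFI35 (0.984) and PSMB9 (0.983); TAP1 was at 55.2 TPM in ASPC1 mock, 31.2 with TAp63 and 23.2 with deltaNp63. TGFBR2 was closest to DLAT (0.987), PGAM1 (0.985) and NKRF (0.985). SMAD3 was closest to TRIM56 (0.963), NFATC1 (0.943) and STX4 (0.942), at lower values than for the other two members.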

How the data were processed

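The authors deposited one table of TPM values per transcript for the 12 libraries. A stranded mRNA kit was used for the libraries, per the labels' protocols. The quantification program, its annotation and the genome build are not given in the sources used here. Transcripts were paired with genes through GENCODE v44 (hg38), which matched 139819 of 153329 (91.2%), holding 89.6% to 90.5% of a library's TPM, and were summed to 39099 genes. The other 13510 were not used here.

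The 14767 genes that reached 1 TPM in 2 or more libraries were fitted with limma 3.58.1 (R 4.3.3; eBayes with trend) as log2(TPM + 1), with a mean for each of 6 groups and 6 residual degrees of freedom. The 9 contrasts were each construct against mock and against the other in each line, the mock groups against each other, and the line's difference in each construct's effect. P-values were two-sided, adjusted by Benjamini-Hochberg over all tested genes, and read at 0.05; transcript rows were fitted alike. The fit was also run on simulated data with the same spread of a gene in every group. The changes added there were larger than those of the members called against mock, so that run does not bear on these calls. Intervals are limma's at 95%. No interval or floor from counting was possible, since TPM keeps no depth.

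The members and lists were chosen with earlier results of these data known. Named genes were the members and, of each list, up to 4 passing genes by size of change (3 between mock groups) and up to 3 by mean TPM. Promoter windows come from RefSeq (GRCh38.p14); all 10 members matched by symbol. No protein sequence was used here.

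Other settings were limma without trend, quantile normalization, median centring, a fit with no filter or with a minimum mean of 5 TPM, a pseudocount of 0.1, only the groups or the cell line compared, a replicate block, transcript rows, and leaving out each library. Summing only complete coding transcripts was added after the data were seen.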

Additional observations from a re-analysis of the deposited data

Results flagged for a closer look

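LTBP4, which holds latent TGF-beta in the matrix, differed between the lines in its response to deltaNp63. The test of that difference in limma gave 1.19 on the log2 scale (SE 0.20, adjusted p = 0.0379). LTBP4 was the one such call among the members and the 71 tested list genes, beside 86 (0.582%) of all 14767 tested genes. In ASPC1 it was at 10.4 ± 1.97 TPM in mock and 6.29 ± 0.10 with deltaNp63 (SD, n = 2), and in PANC1 at 9 ± 0.03 and 13.7 ± 1.41, where the change of 0.55 alone did not pass (adjusted p = 1). The difference passed in 8 of 21 other settings, with values from 0.83 to 1.37.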

How the results depend on the processing

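Of 1800 values of a member in another setting, 1752 stayed on the same side of the threshold. Another 31 no longer passed, 17 newly passed and 0 calls changed sign. Most of the 1800 came from comparisons in which the member was not called. For deltaNp63 against mock in ASPC1, SMAD3 no longer passed in 18 of 23 settings, and TGFB1 and TGFBR2 in 6 of 23 each. Of the values that passed in neither setting, 107 changed sign. The 3 members called for deltaNp63 against mock in ASPC1 became 1 without a filter on low values, 0 when the fit held only the groups or only the cell line compared, 0 for transcript rows and 5 for complete coding transcripts; leaving out 1 library gave 0 to 5. The smaller fits hold fewer samples, and the cause of the other changes was not tested. Leaving out 1 library gave a median member change of −0.18 to −0.105 for TAp63 against mock in ASPC1. For the difference between the lines in the deltaNp63 effect the median was 0.123 to 0.356. Between the mock groups, where 7 members passed, 13 of the 32 member transcript rows passed, with no share over all transcript rows to set beside them. Over all genes, the 1055 calls for deltaNp63 in ASPC1 became 708 without trend, 199 after quantile normalization, 419 after median centring, 225 without a filter, 8 with the cell line alone and 0 with the groups alone, and were 98 and 124 without ASPC1 mock replicate 1 and 2, 114 and 4057 without ASPC1 deltaNp63 replicate 1 and 2, and 170 to 393 without any one PANC1 library. Deviations of same-numbered replicates were at most weakly related (r −0.094 to 0.293, highest between TAp63 and deltaNp63 in ASPC1), which does not settle whether the numbers pair samples. With the replicate block, the same 3 members passed (limma adjusted p = 0.0124 for TGFB1, 0.0257 for TGFBR2 and 0.039 for SMAD3), and all genes gave 1633 calls. The depth behind the TPM values is unknown.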
